A study of Mus musculus with 4 samples.

Results

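The genes described here encode the nuclear subunits of the 5 complexes of oxidative phosphorylation. They were chosen by symbol alone, as the rows beginning with Nduf, Cox, Uqcr or Atp5 in the forms used for subunits, together with Sdha to Sdhd and Cyc1, and without pseudogene symbols. The rule found 84 of the 24421 genes listed, of which 38 fell under complex I, 4 under complex II, 9 under complex III, 16 under complex IV and 17 under complex V. Of these, 79 had a mean of at least 1 FPKM (a count of fragments corrected for transcript length and library size) over the 4 libraries and were tested among 12011 genes. The symbols do not match the complexes exactly. Ndufa4 is counted under complex I by name although its product is now placed in complex IV, Cox7a2l encodes a factor that joins complexes III and IV, and Atp5s and Atp5sl encode factors rather than structural subunits. Cox4i1, a subunit of complex IV, falls outside the symbol rule and is given apart.

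In the inner mitochondrial membrane, complexes I and II pass electrons from NADH and succinate to ubiquinone, complex III passes them on to cytochrome c, and complex IV reduces oxygen. Complexes I, III and IV pump protons, and complex V, the ATP synthase, uses the return flow to make ATP. Most subunits are encoded in the nucleus and imported, and a smaller catalytic set is encoded by mitochondrial DNA. Usp25 encodes a deubiquitinating enzyme, which takes ubiquitin off other proteins.

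Poly(A) RNA was sequenced from 2 Usp25+/+ mice (animals 139 and 140) and 2 Usp25-/- mice (animals 826 and 850). By the labels all were C57BL/6-background females, 8 weeks old, whose drinking water held 2.5% dextran sulfate sodium (DSS, which damages the colonic lining) during 5 days before 2 days of water alone, and the RNA came from a short piece of distal colon. The labels do not describe the Usp25-/- allele further, and mice without DSS were not analysed here. Values are given below in the order 139, 140, 826 and 850, and n is 2 animals in each genotype.

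The libraries followed the genotype labels but not the labelled tissue or sex. Usp25 itself had levels of 38.5, 16.6, 2.65 and 1.71 FPKM, so that both Usp25-/- libraries were far below. Of 12 genes listed for colonocytes and goblet cells, 8 were under 1 FPKM in every library, and Aqp8 and Cdx1 were at 0 in all of them. The 12 summed to between 205 and 412 FPKM, mostly Car4 (193 to 399 FPKM), with Lgals4 at 7.04 to 70.6 FPKM and Krt20 at 3.11 to 52.4 FPKM. The 10 genes listed for alveolar type 2 cells of the lung summed to between 1582 and 5027 FPKM. Xist did not pass 0.110 FPKM, while the Y-linked Ddx3y was at 12.7 FPKM or more. Library totals lay between 526652 and 565645 FPKM, and between 15603 and 20556 genes were above 0, most of them in 139. The sequencing depth is unknown, because the files give no counts. In bulk RNA, fewer cells of a type and less RNA per cell cannot be told apart.

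Subunit genes were among the more abundant transcripts in all 4 libraries. Their median place was the 93.6th percentile of the tested genes by mean FPKM, and 59 of the 79 (74.7%) lay above the 90th percentile. In 73 of them every library was above 10 FPKM. Their summed FPKM made up 1.16% and 1.87% of the total in Usp25+/+ and 1.97% and 1.73% in Usp25-/-. The means were 1.51% ± 0.502 and 1.85% ± 0.169 (SD, n = 2 each), and the exact permutation test of the difference of 0.34 percentage points gave a two-sided p of 0.667. The Usp25+/+ and Usp25-/- shares overlapped, and library 139 alone lay far below the rest. With 2 against 2 libraries such a test cannot give a p below 0.333. Without 139 the difference was -0.0192 percentage points.

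**Figure D1:**
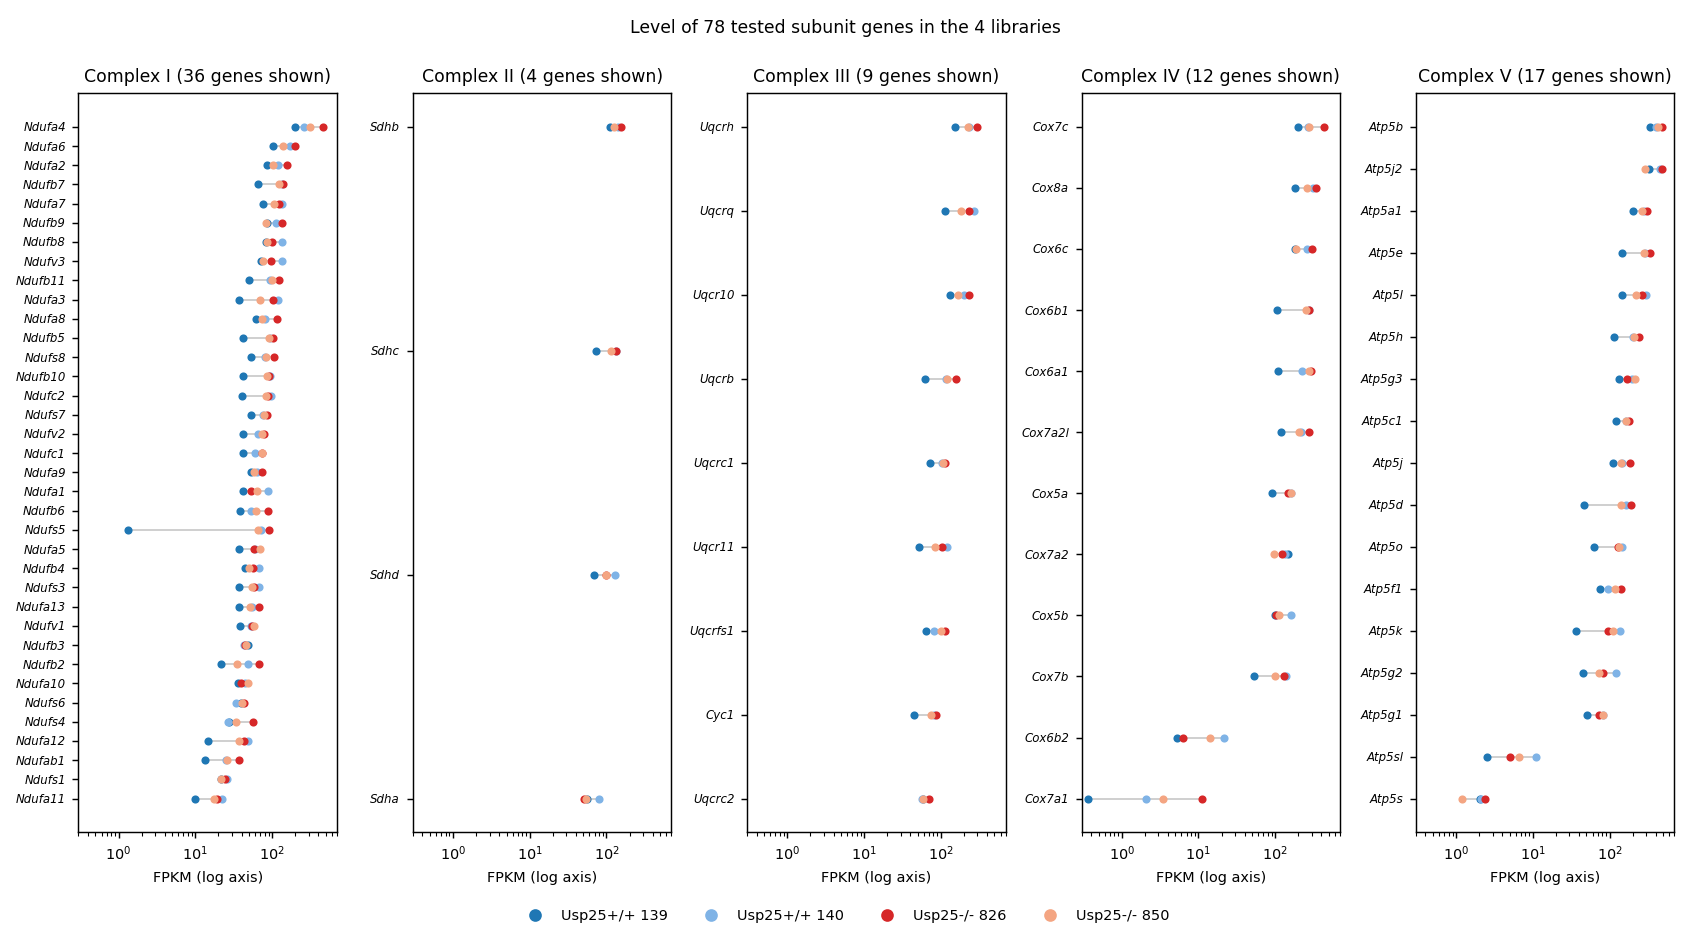
FPKM on a log axis of 78 of the 79 tested genes by complex, with 1 point for each of the 4 libraries and genes ordered by level. Most genes lie between 10 and 500 FPKM, and the point of Usp25+/+ 139 is the leftmost in 69 of the 78.

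None of the 79 genes differed between the genotypes at the threshold. Limma gave 0 of 79 at an adjusted p below 0.05, as for all genes tested (0 of 12011, 0%; smallest adjusted p 0.374). At an unadjusted p below 0.05 it gave 1 of the 79, Cox7a1, where 375 of all genes (3.12%) passed. The fitted log2 fold change, Usp25-/- minus Usp25+/+ on log2(FPKM + 1), was above 0 in 67 of the 79 (84.8%) and below 0 in 12, beside 53.5% above 0 over all genes tested. Its median was 0.33, with a range from -0.36 to 2.60, and the median over all genes was 0.03. Both Usp25-/- libraries stood above both Usp25+/+ libraries in 23 of the 79 (29.1%), beside 19% of all genes. The reverse held for Sdha and Cox7a2, or 2.53%, beside 14.7% of all genes. In the other 54 genes the genotypes overlapped.

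This shift rested on 1 library. Usp25+/+ 139 was the lowest of the 4 in 70 of the 79 genes (88.6%), and the lowest in 39.4% of all genes tested. Library medians over the 79 genes were 58.1, 114, 105 and 90.2 FPKM. Usp25+/+ 140 therefore had the highest median, above both Usp25-/- libraries. Counted by gene, however, 826 was the highest library in 46 of the 79 (58.2%, beside 25.4% of all genes). Library 140 was the highest in 25 (31.6%, beside 27.2% of all genes). Gene by gene, 140 lay above both Usp25-/- libraries in 26 and below both in 24. Without 139 the median log2 fold change was -0.03 and 36 of the 79 (45.6%) were above 0, beside 49.2% of all genes. Without 140 the median was 0.73 and 75 of the 79 were above 0, beside 56.0% of all genes. The Usp25-/- libraries also differed from each other, since 826 was above 850 in 64 of the 79 (81.0%), beside 48.5% of all genes.

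**Figure D2:**
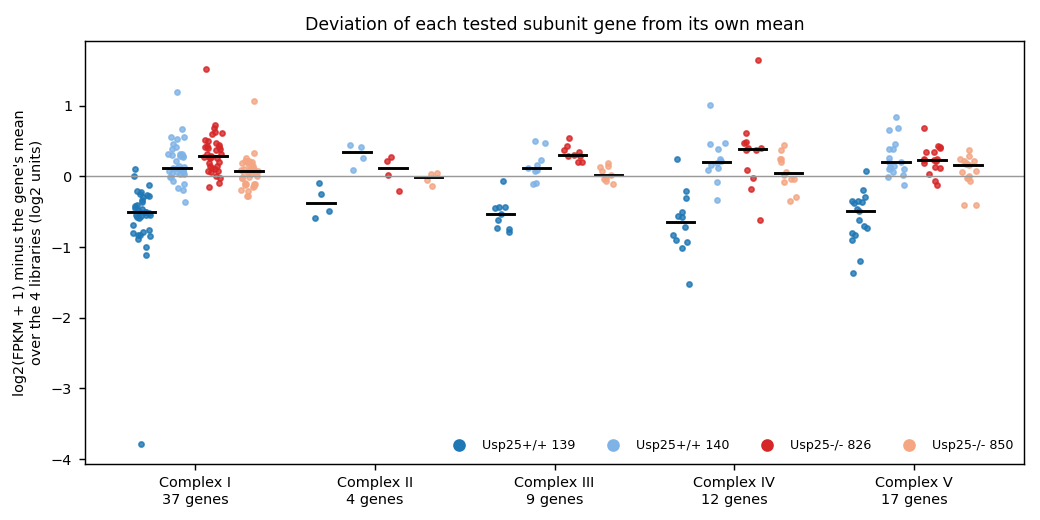
Deviation of each tested gene from its own mean over the 4 libraries on log2(FPKM + 1), in log2 units, with 1 column of points per library within each complex and the median as a bar. The bar of Usp25+/+ 139 is the lowest in all 5 complexes, and 139 is the lowest library in 70 of the 79 genes.

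Complex I takes electrons from NADH. Its 37 tested genes had library medians of 41.5, 72.5, 86.9 and 70.2 FPKM, and a median log2 fold change of 0.37, with 31 above 0 and 6 below. The genotypes did not overlap in 12 (32.4%, beside 19% of all genes), all of them higher in Usp25-/-. Without 139 the median was 0.05. When the subunits were sorted by role after the values were seen, the 7 core subunits, which hold the NADH site and the iron-sulfur clusters, had 5 higher without overlap and a median of 0.37. The 29 accessory subunits had 6 higher without overlap (20.7%, near the 19% of all genes) and the same median of 0.37. Of the core, Ndufv1, which binds NADH, stood at 37.8, 52.7, 54.8 and 58.1 FPKM. Library 140 lay just below 826, and 139 well below. Ndufs1, the largest core subunit, was flat at 21.5, 25.8, 24.6 and 21.8 FPKM.

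Accessory subunits of complex I held both the steadiest and the most variable genes of the set. Ndufa4, counted under complex I by symbol only and not sorted as accessory, had the highest level of the complex I symbols. It stood at 200, 264, 459 and 315 FPKM, a log2 fold change of 0.73 (SE 0.38). Ndufs4, which stabilises the NADH-binding arm, stood at 27.6, 26.3, 55.6 and 33.6 FPKM, and unlike most members it was no lower in 139 than in 140. Its log2 fold change was 0.66 (SE 0.35). Ndufc1 stood at 41.5, 60.7, 74.6 and 73.0 FPKM. Both genotypes were apart in these 3 genes, and the adjusted limma p of all of them was 0.960. Ndufv3 and Ndufb8 had the most negative values, each with a log2 fold change of -0.20. Ndufv3 was at 72.5, 133, 96.8 and 75.4 FPKM and Ndufb8 at 82.6, 136, 99.7 and 85.6 FPKM, so that 140 was the highest and the other 3 libraries lay close together. Ndufb3 varied least, at 48.7, 43.1, 44.5 and 45.2 FPKM. Ndufa4l2, a paralog of Ndufa4, was not tested and was listed at 0, 1.03, 0 and 1.97 FPKM.

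Ndufs5, an accessory subunit facing the intermembrane space, was the exception in size. It stood at 1.31 FPKM in 139 and at 72.5, 91.4 and 66.3 FPKM in 140, 826 and 850. The other 3 libraries were near the median of complex I genes, and 139 alone was near 0. Its range over the libraries was 5.32 log2 units, and 33 of the 12011 genes (0.275%) had a wider one. The log2 fold change of 2.60 (SE 1.58) came from that value. The gene lies on mm9 chromosome 4 from 123389953 to 123395445 on the minus strand. It has 1 near-identical copy elsewhere in the genome (at least 95% identity over at least 80% of a transcript), and the files do not tell how reads were divided between such copies.

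Complex II, succinate dehydrogenase, also belongs to the tricarboxylic acid cycle, and all of its 4 subunits are nuclear. Library medians were 70.7, 132, 116 and 106 FPKM, and the median log2 fold change was 0.10. Sdha, the flavin subunit that oxidises succinate, stood at 55.1, 78.9, 50.7 and 53.5 FPKM. Both Usp25-/- libraries were below both Usp25+/+ libraries, with 139 just above 850, and the log2 fold change was -0.34 (SE 0.33). Sdhb, the iron-sulfur subunit, stood at 110, 139, 152 and 126 FPKM. The membrane anchors Sdhc and Sdhd stood at 73.4, 133, 135 and 114 FPKM and at 68.1, 131, 97.3 and 98.2 FPKM. In Sdhb, Sdhc and Sdhd, 139 was again the lowest, and without it 0 of the 4 genes of the complex had a log2 fold change above 0.

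Complex III passes electrons from ubiquinol to cytochrome c. All 9 of its genes had a log2 fold change above 0, beside 53.5% of all genes, with a median of 0.35. In 4 (44.4%, beside 19% of all genes) both Usp25-/- libraries were higher without overlap. Library medians were 65.1, 118, 113 and 108 FPKM. Uqcrfs1, the Rieske iron-sulfur protein, stood at 65.1, 81.6, 113 and 100 FPKM, a log2 fold change of 0.54 (SE 0.31). The core protein Uqcrc1 stood at 71.3, 104, 112 and 108 FPKM, with 140 close below both Usp25-/- libraries. Uqcrb, a small ubiquinone-binding subunit, had the widest range, at 62.4, 118, 159 and 119 FPKM, and has 3 near-identical copies. The hinge protein Uqcrh was the most abundant, at 154, 234, 300 and 224 FPKM. Uqcrc2, the other core protein, was nearly flat at 58.1, 56.5, 69.6 and 58.8 FPKM. Without 139 the median was 0.08 and 5 of the 9 were above 0.

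Complex IV, cytochrome c oxidase, has a catalytic core encoded by mitochondrial DNA and a nuclear shell with several tissue-specific isoforms. Its 12 tested genes had a median log2 fold change of 0.38, with 9 above 0, and library medians of 108, 191, 209 and 174 FPKM. Cox6a1, the broadly expressed form of its subunit, stood at 110, 224, 292 and 274 FPKM. Both Usp25-/- libraries were the highest, and the log2 fold change was 0.84 (SE 0.44). Cox7c, the most abundant of the 12, stood at 201, 271, 435 and 278 FPKM, with 140 and 850 close together. Cox5b stood at 101, 161, 103 and 111 FPKM, where 140 alone was high. Cox4i1, outside the symbol rule, was more abundant than any of these, at 366, 604, 778 and 651 FPKM, a log2 fold change of 0.60 (SE 0.42).

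The isoforms of subunit 7a had fold changes of opposite sign. Cox7a1, the form known from heart and skeletal muscle and brown fat, was low, at 0.359, 2.09, 11.2 and 3.48 FPKM. Both Usp25-/- libraries were above both Usp25+/+ libraries, though 850 was nearer to 140 than to 826. Limma gave a log2 fold change of 1.85 (SE 0.65), and its p was 0.0344 before and 0.960 after adjustment. Cox7a2, the broadly expressed form, stood at 147, 135, 122 and 97.1 FPKM. It was the other gene that was lower in both Usp25-/- libraries, with a log2 fold change of -0.36 (SE 0.32), and it was highest in 139. Markers of the cells known for Cox7a1 differed in level. Of 15 genes of cardiac and skeletal muscle, 7 were under 1 FPKM in every library, Mb was at 0 in all, and their sums were 8.85, 7.61, 11.4 and 10.4 FPKM. Among them, the cardiac myosin gene Myh7 stood at 2.50, 3.67, 4.82 and 5.62 FPKM, higher in both Usp25-/- libraries. Myl4, the only other tested gene of the 15, went the other way, at 1.84, 1.20, 0.726 and 0.311 FPKM. The brown fat gene Ucp1 did not pass 0.406 FPKM, and 5 of 8 genes listed for brown adipocytes were under 1 FPKM in every library. The sums of these 8 were 405, 247, 400 and 332 FPKM, nearly all from Fabp4, which is also known from other cells. Cidea, a lipid droplet gene of brown fat, stood at 0.681, 1.05, 3.996 and 2.52 FPKM (limma p 0.0215 before and 0.960 after adjustment). Its order of libraries was that of Cox7a1, and Sftpb and Lgals4 from other marker lists shared that order. Fabp4, the only other tested gene of the 8, did not, at 403, 244, 394 and 329 FPKM. The part of such cells in the Cox7a1 values was not tested.

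Other muscle or testis isoforms of complex IV were listed near 0. Cox8b and Cox7b2 were at 0 in all libraries. Cox6a2 was listed at 1.41, 0, 0.345 and 0 FPKM, and Cox8c at 1.04 FPKM in 139 and at 0 in the rest. The testis form Cox6b2 was higher, at 5.28, 21.4, 6.24 and 14.1 FPKM. Of 12 ratios between paralogs, on log2 of (FPKM + 1), 3 did not overlap between the genotypes, and all of these were higher in Usp25-/-. They were Cox7a1 over Cox7a2 (difference 2.22), Cox7a2l over Cox7a2 (0.92) and Cox4i1 over Cox4i2 (0.76), each with an exact permutation p of 0.333, or 0.889 after adjustment over the 12 pairs. No pair passed, and with 2 against 2 libraries none could. The ratio of Cox7a1 to Cox7a2 was -6.76 and -5.46 in Usp25+/+ and -3.34 and -4.45 in Usp25-/-, so Cox7a2 was far the more abundant in every library. Cox4i2, an isoform induced by low oxygen, stayed at 1.51, 4.16, 2.05 and 2.39 FPKM.

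**Figure D3:**
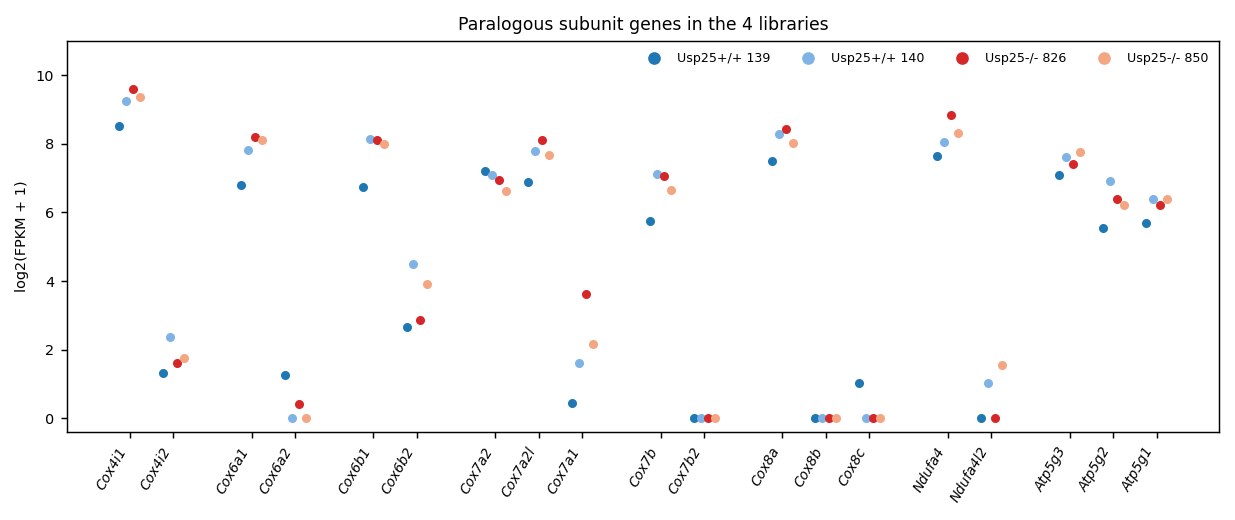
Level on log2(FPKM + 1) of 8 groups of paralogs (all pairs except Uqcr10 and Uqcr11, with Cox8c added), with 1 point for each library. The broadly expressed complex IV forms lie far above their tissue-specific partners in all 4 libraries, and Cox7a1 is the low form whose genotypes do not overlap (0.359 and 2.09 against 11.2 and 3.48 FPKM).

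Complex V makes ATP. Its 17 genes had library medians of 112, 162, 180 and 141 FPKM and a median log2 fold change of 0.29, with 15 above 0. In 4 (23.5%, near the 19% of all genes) Usp25-/- was higher without overlap. Atp5b, the catalytic beta subunit, was the most abundant, at 333, 408, 480 and 428 FPKM, and 140 lay just below 850. Atp5f1, of the stalk that holds the catalytic head still, stood at 74.5, 96.8, 141 and 119 FPKM, a log2 fold change of 0.60 (SE 0.33). Atp5d, the delta subunit of the rotating stalk, had the widest range, at 45.9, 165, 192 and 140 FPKM. Its log2 fold change was 0.90 (SE 0.66), and -0.00814 without 139. Atp5j2, of the membrane part, stood at 331, 456, 480 and 286 FPKM, with both Usp25+/+ values between the Usp25-/- ones. Atp5s was low, at 2.06, 2.14, 2.41 and 1.19 FPKM, and Atp5sl stood at 2.57, 10.98, 5.12 and 6.58 FPKM.

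The 3 genes for the membrane ring of the ATP synthase, Atp5g1, Atp5g2 and Atp5g3, encode the same mature protein behind different import sequences. Atp5g3 gave 58.1%, 49.1%, 52.0% and 58.0% of their summed FPKM. Atp5g1 was steady, at 22.2%, 20.7%, 22.5% and 22.3%, and Atp5g2 gave 19.7%, 30.3%, 25.5% and 19.7%. The higher share of Atp5g2 was thus in 1 library of each genotype, 140 and 826. Atp5g2 has 3 near-identical copies and Atp5g1 has 1, so these shares are uncertain.

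**Figure D4:**
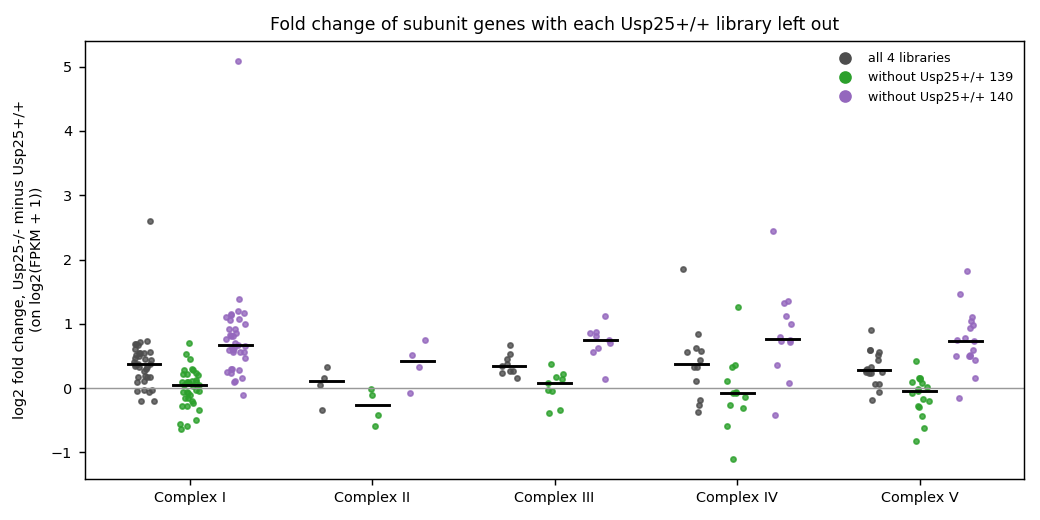
Log2 fold change (Usp25-/- minus Usp25+/+, on log2(FPKM + 1)) of each tested gene by complex, fitted with all libraries, without 139 and without 140, with medians as bars. The medians of all 5 complexes lie above 0 with all libraries (0.10 to 0.38) and are higher when 140 is left out, and they lie between -0.26 and 0.08 when 139 is left out.

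Among genes around the complexes, no gene of any list passed the test in limma, and the lists differed in how far they rested on 139. Over all genes, 53.5% were above 0. Assembly factors, which help to build the complexes, had 30 of 43 tested members above 0 and a median log2 fold change of 0.23, and -0.07 without 139. The largest were Sdhaf3, a complex II factor, at 0.797, 2.99, 4.21 and 5.98 FPKM, and Cox16, a complex IV factor, at 7.53, 21.2, 32.7 and 22.2 FPKM. In both, 139 was well below the rest. Of 5 tested subunits and carriers outside the symbol rule, 4 were above 0, with a median of 0.60, and 0.35 without 139. Among them, Usmg5, of the ATP synthase, stood at 133, 168, 340 and 188 FPKM, and its inhibitor Atpif1 at 34.8, 55.9, 75.5 and 68.1 FPKM. The tricarboxylic acid cycle and pyruvate dehydrogenase genes had 13 of 17 above 0 and a median of 0.13, which stayed at 0.12 without 139. Pdhb, of pyruvate dehydrogenase, stood at 56.2, 49.1, 92.3 and 66.7 FPKM, and fumarase (Fh1) at 26.3, 36.5, 51.0 and 37.9 FPKM. Genotypes did not overlap in either, and 139 was not the lowest for Pdhb. Transport and membrane genes had 17 of 19 above 0, a median of 0.31, and 0.15 without 139. The channel gene Vdac3 stood at 53.4, 49.7, 74.2 and 69.9 FPKM and the phosphate carrier Slc25a3 at 172, 264, 302 and 291 FPKM. Subunits encoded by mitochondrial DNA were not analysed here.

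Regulators of mitochondrial genes showed no shared shift. Of 13 tested, 8 were above 0, with a median of 0.08. Tfam, which packages and transcribes mitochondrial DNA, stood at 4.21, 4.37, 6.99 and 7.24 FPKM, with both genotypes apart and 139 close to 140. Its log2 fold change was 0.62 (SE 0.27; adjusted limma p 0.960). Myc stood at 6.04, 11.4, 14.3 and 12.9 FPKM. Ppargc1a, a coactivator that drives mitochondrial biogenesis, was too low to test, at 0.664, 0.288, 0.355 and 0.0473 FPKM. Nrf1, Gabpa and Yy1 encode DNA-binding factors known for subunit promoters. Nrf1 stood at 10.9, 7.57, 7.78 and 7.67 FPKM, and Gabpa at 11.3, 6.33, 8.03 and 7.83 FPKM. Both were highest in 139, the library in which the subunit genes were lowest, while Yy1 was flat at 26.5, 24.8, 29.1 and 27.95 FPKM. Exons of Gabpa overlap those of Atp5j on the other strand, and the libraries do not mark strand.

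Promoters are shown to describe the start regions of the subunit genes, and their part in the differences between libraries was not tested. RefSeq windows of GRCm38.p6 (250 bases before to 50 after a start) matched 70 of the 84 genes, with 76 windows among 32851. Letters were searched on both strands for NRF1 (CGCANGCG), GABP (CCGGAAG) and YY1 (AAGATGGC), the sites of the factors named above. NRF1 letters were in 39.5% of the subunit windows and in 8.21% of all windows. The GABP letters were in 21.1% and 8.86%, and the YY1 letters in 15.8% and 2.75%. At least 1 of the 3 was in 61.8% of the subunit windows and in 17.6% of all windows. The subunit windows were also richer in CpG, with a median of 19 against 7 per window, and in GC, at 57.5% against 52.7%, so the comparison is not one of like base composition. The windows below run from 100 bases before to 20 after the start, 5′ to 3′ along the gene, with mm9 coordinates found by exact match and the motif letters in capitals. They belong to abundant genes with each set of letters, and Ndufs5 was added for its value in 139.
Uqcr10 (chr11:4604328-4604447, minus strand): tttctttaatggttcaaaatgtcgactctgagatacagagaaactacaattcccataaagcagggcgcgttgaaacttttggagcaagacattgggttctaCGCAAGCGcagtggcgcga
Atp5c1 (chr2:10002040-10002159, minus strand): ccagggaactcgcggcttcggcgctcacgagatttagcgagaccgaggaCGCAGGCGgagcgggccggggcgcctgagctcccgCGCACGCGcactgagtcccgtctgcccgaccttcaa
Cox8a (chr19:7292087-7292206, minus strand): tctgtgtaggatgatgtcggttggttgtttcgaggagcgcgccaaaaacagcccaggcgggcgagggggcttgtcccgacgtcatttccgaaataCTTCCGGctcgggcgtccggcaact
Cox6b1 (chr7:31411114-31411233, minus strand): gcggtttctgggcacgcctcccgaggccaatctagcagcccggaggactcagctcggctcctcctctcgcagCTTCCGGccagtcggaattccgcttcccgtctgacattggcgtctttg
Atp5j (chr16:84835202-84835321, minus strand): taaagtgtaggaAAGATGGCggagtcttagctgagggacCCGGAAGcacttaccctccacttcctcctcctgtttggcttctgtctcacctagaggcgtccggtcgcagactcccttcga
Atp5f1 (chr3:105762162-105762281, minus strand): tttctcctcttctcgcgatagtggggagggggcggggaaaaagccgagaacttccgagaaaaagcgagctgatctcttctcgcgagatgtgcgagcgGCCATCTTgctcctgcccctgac
Ndufs5 (chr4:123395410-123395529, minus strand): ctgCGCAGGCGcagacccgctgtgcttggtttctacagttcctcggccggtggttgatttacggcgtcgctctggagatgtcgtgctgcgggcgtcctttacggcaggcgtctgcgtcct
Uqcr10 and Atp5c1 hold the NRF1 letters, Cox8a and Cox6b1 those of GABP on the opposite strand, and Atp5f1 those of YY1 on the opposite strand at the start itself. The window of Atp5j holds both YY1 and GABP letters. Ndufs5 holds the NRF1 letters, as Uqcr10 and Atp5c1 do. A match of letters is a description and shows no binding.

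Library 139 also differed from the others in cell markers and in other abundant gene sets. All 9 neutrophil markers found of 10 were highest in 139, where they summed to 45753 FPKM against 784, 2063 and 1270 FPKM in the other libraries. The 10 alveolar type 2 genes summed to 1582 FPKM in 139 and to 3922, 5027 and 4712 FPKM in the rest. Most of each sum came from Sftpc (339, 2347, 1376 and 2596 FPKM) and Sftpb (865, 1139, 3284 and 1581 FPKM). The medians of the 10 were 44.7, 46.0, 33.1 and 59.5 FPKM, with 826 the lowest. Library 139 was the lowest for 5 of the 10 and 826 for 4. The 9 macrophage genes summed to 16965 FPKM in 139 against 41067, 33827 and 34115 FPKM, mostly from Lyz2. Lyz2 alone stood at 12613, 38922, 31444 and 32571 FPKM, and the medians of the 9 were 149, 138, 141 and 76.5 FPKM. Library 139 was the lowest for only 3 of the 9 and the highest for 4. Like the subunit genes, other abundant housekeeping sets were low in 139. It was the lowest library in 71 of 77 mitochondrial ribosomal protein genes and in 76 of 86 cytosolic ones. The mitochondrial set had 67 of 77 above 0 and a median log2 fold change of 0.29, and 0.03 without 139. Cytosolic ribosomal genes had 82 of 86 above 0 and a median of 0.50, and 0.18 without 139. Their part, and that of the cell markers, in the subunit values was not tested.

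Subunit genes are short, and short transcripts were low in 139. The median longest coding transcript was 955 bases for the tested subunit genes and 2876 bases for the 10777 tested genes with a length. Over those genes the median of 139 minus the mean of the other libraries went from -0.57 log2 units below 500 bases and -0.64 from 500 to 750 bases, through -0.17 from 2000 to 3000 bases, to 0.25 at 5000 bases or more. The subunit genes stood at -0.77 (23 genes from 500 to 750 bases), -0.48 (12 genes from 750 to 1000 bases) and -0.69 (14 genes from 1000 to 1500 bases), beside -0.64, -0.58 and -0.48 for all genes of those lengths. They thus lay below all genes of their length in the first and last of these bins and above them in the middle one. In every other bin that held them they lay below. They stood at -1.02 (8 genes below 500 bases) and -0.53 (11 genes from 1500 to 2000 bases), beside -0.57 and -0.35. At 2000 to 3000 bases (7 genes) and 3000 to 5000 bases (4 genes) they stood at -0.34 and -0.91, beside -0.17 and 0.007. Spearman's rho between length and this difference was 0.37 across all genes and 0.31 across the subunit genes, which share libraries and are not replicates. After a smooth length trend was taken out of each library, a step chosen after seeing the data, the median of 139 minus the others for the subunit genes went from -0.69 to -0.16. Their median log2 fold change went from 0.33 to 0.13, with 48 of 79 above 0 (60.8%, beside 48.8% of all genes). Library 139 was the lowest in 41 of 79 (51.9%, beside 31.7%). The part of transcript length in the low subunit values of 139 was not tested.

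**Figure D5:**
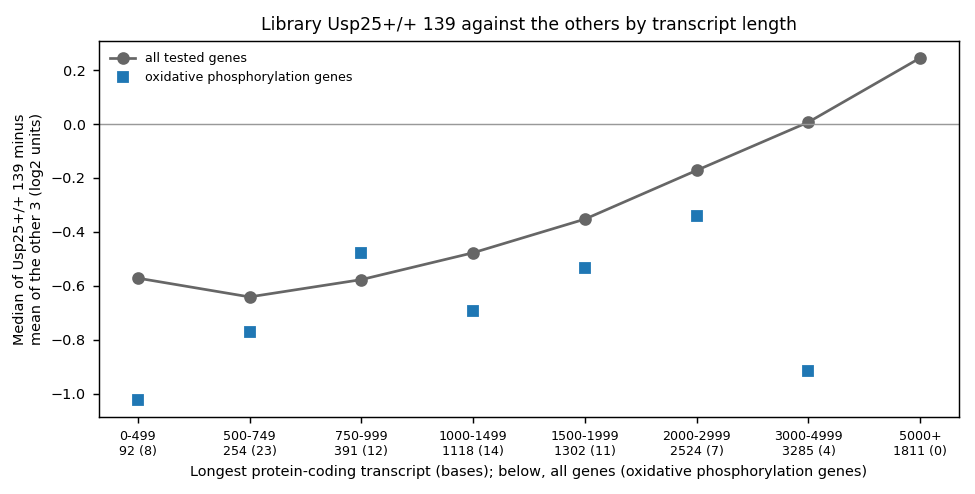
Median over genes of Usp25+/+ 139 minus the mean of the other 3 libraries, in log2 units of FPKM + 1, by length of the longest protein-coding transcript, for all tested genes and for the subunit genes. For all genes the line goes from -0.57 in the shortest bin to 0.25 in the longest, and the subunit genes lie below 0 in each bin that holds them (4 to 23 genes a bin).

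Some subunit genes cannot be measured apart from other sequences. Of the 84, 16 have at least 1 near-identical copy, up to 10 for Atp5l, and 19 have exons that overlap another gene. The 50 tested genes with neither had a median log2 fold change of 0.33, with 41 above 0 (82%, beside 53.5% of all genes). In 15 of them Usp25-/- was higher without overlap (30%, beside 19%). Library 139 was the lowest in 43 of them (86%, beside 39.4% of all genes).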

How the data were processed

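RNA was measured in 4 libraries, 1 per animal, of poly(A) RNA sequenced as paired reads without strand marking, per the labels' protocols. The submitters' processing notes list mm9 as the build and Cufflinks, TopHat2 2.1.1 and cutadapt as tools. Annotation and scaling were not given in the sources used here. Values as deposited by the authors were read as FPKM, since Cufflinks is listed and library totals differ, though no header states the unit.

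Groups came from the genotype labels. The scale was log2(FPKM + 1), on which changes of low genes are understated, for genes with a mean of at least 1. The comparison used limma 3.58.1 (R 4.3.3; empirical Bayes with trend, 2 residual degrees of freedom, two-sided), with Benjamini-Hochberg adjustment over 12011 genes and a threshold of 0.05. Limma SEs and p-values rest on the spread between 2 animals in each genotype, drawn toward a trend of spread fitted over all genes tested. Single values and paralog ratios used exact permutation over the libraries. Fits were tested on simulated data with planted changes larger than those of nearly all subunit genes. That test does not tell whether smaller changes would be found.

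Members and lists were chosen with earlier results of these data known. Named genes were, per complex, those of highest and lowest level, largest fold changes, widest gaps and ranges, all paralog pairs and all listed at 0. For other lists, the largest 2 changes were taken, and the ribosomal lists are given by counts. Genes named outside this rule (Ndufv1, Ndufs1, Atp5sl, Nrf1, Gabpa, Yy1 and single cell markers) were chosen with their values known. For 1 member, values are not reported here. Coordinates are GENCODE vM1 on mm9, which matched 20836 of 24421 symbols. Copies came from blastn 2.17.0. The length trend was a lowess curve (fraction 0.3), fitted in each library against the logarithm of transcript length. The fitted value was the deviation of log2(FPKM + 1) from the gene's mean over the 4 libraries. Other pseudocounts, filters, scalings and left-out libraries were tried.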

Additional observations from a re-analysis of the deposited data

How the results depend on the processing

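No gene passed an adjusted limma p of 0.05 under any pseudocount, filter, scaling, variance model or left-out library tried. The count at an unadjusted p below 0.05 was 375 of all genes (3.12%). It was 899 with no filter and 227 with a mean of at least 5 FPKM. Of the 79 tested subunit genes, 1 was below that p in the main fit, and 0 were with no filter or with the stricter filter. Without 140 the median log2 fold change of the subunit genes was 0.73, beside 0.10 over all genes. Without 139 it was -0.0287, beside -0.00824. No paired analysis was possible because the animal numbers differ between the genotypes. Pseudocounts, filters and scalings kept the direction of the 29 named genes, while leaving out a library turned 11 of them. Depth is unknown. Where 1 library remained in a genotype, its spread was taken from the other genotype. The cause of the changes below was not tested.

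Over the 4 left-out libraries, the median log2 fold change ranged from -0.0287 to 0.73 for all subunit genes, -0.26 to 0.42 for complex II, 0.0833 to 0.75 for complex III and -0.0381 to 0.73 for complex V. It was -0.08 for complex IV without 139, and -0.14 for complex II after the length trend was removed. It ranged from -0.0676 to 0.37 for assembly factors, 0.0271 to 0.61 for mitochondrial ribosomal genes and -0.0752 to 0.11 for regulators, whose median was 0.0353 with a pseudocount of 5 and 0.0327 with no filter. The share of summed FPKM differed by -0.0192 to 0.69 percentage points. Single genes ranged from -0.00814 to 1.82 (Atp5d), -0.44 to 0.31 (Atp5j2), -0.50 to 0.14 (Atp5s), -0.68 to 0.36 (Cox4i2), -0.59 to 0.0773 (Cox5b), -0.11 to 0.0561 (Ndufb3), -0.55 to 0.16 (Ndufb8), -0.64 to 0.23 (Ndufv3), -0.00783 to 0.33 (Sdhb), -0.10 to 0.75 (Sdhc) and -0.42 to 0.52 (Sdhd). Paralog ratios ranged from -0.26 to 1.12 (Cox7b over Cox7b2), -0.0565 to 0.72 (Cox8a over Cox8b), -0.60 to 1.51 (Ndufa4 over Ndufa4l2), -0.16 to 0.55 (Atp5g1 over Atp5g2), -0.0602 to 0.11 (Atp5g1 over Atp5g3), -0.59 to 0.26 (Atp5g2 over Atp5g3) and -0.31 to 0.31 (Uqcr10 over Uqcr11).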
